A study of Mus musculus with 4 samples.

Results

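The genes for the motors that move cargo along microtubules were examined: kinesin heavy chains (Kif symbols), kinesin light chains (Klc), the chains of cytoplasmic dynein (Dync and Dynl) and the subunits of dynactin (Dctn). Members were the entries of the expression tables whose symbol belongs to one of these families. The choice used symbols only, and no measured value. It found 66 entries under 60 symbols among 27189 entries in all. RNA came from cell bodies of large motor neurons that were cut by laser from the ventral horn of the spinal cord. There were 2 groups of 2 libraries, and each library came from 1 mouse at 3 months of age on a C57BL/6J x SJL/J background. The wild-type group (strain 592) carried a transgene for wild-type human SOD1 fused to yellow fluorescent protein (wild-type SOD1-YFP). The G85R group (strain 737) carried the same human genomic fragment with the G85R mutation, which causes familial ALS (G85R SOD1-YFP), and was sampled before symptoms. Both groups thus expressed a human SOD1 fusion protein from the human gene's own regulatory sequence, in many cell types, and no mouse without a transgene was among the 4 libraries. The G85R strain holds many more copies of its transgene, so genotype, copy number and strain differed together and cannot be told apart. In G85R cords, cells with large aggregates were passed over during capture.

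A motor axon is far longer than its cell body, and nearly all of its proteins and membranes start out in the cell body. Most kinesins walk toward the plus ends of microtubules, which point away from the cell body in axons, and so carry mitochondria, vesicle precursors and cytoskeletal proteins outward (anterograde transport). Cytoplasmic dynein walks the other way and brings back endosomes, autophagosomes and survival signals (retrograde transport). It needs dynactin, a large complex that links it to cargo and lets it take long runs. Mutations in KIF5A and in DCTN1, the human genes for a kinesin heavy chain and the largest dynactin subunit, are known in motor neuron disease. The comparison asked whether RNA for either set of motors differed between the genotypes before symptoms.

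Values are RPKM, reads per kilobase of transcript scaled to the mapped reads of a library, so that levels of different genes can be set side by side. Reads estimated from the tables summed to 21560317 to 25186593 per library, and 1 read was worth a median of 0.0195 to 0.0226 RPKM. Motor neuron markers (Chat, Isl1, Nefh and 5 others) summed to 2470 and 2730 RPKM in wild-type replicates 1 and 2 and to 2200 and 2580 RPKM in G85R replicates 1 and 2. Of these 8 markers, 1 had a higher mean in G85R and 3 were lower without overlap. Markers of other cells were also read, and they were highest in G85R replicate 1 for 8 of 8 astrocyte, 9 of 9 microglial, 8 of 8 oligodendrocyte and 5 of 5 interneuron genes. The summed astrocyte markers were 499 and 487 RPKM in wild-type and 802 and 515 RPKM in G85R, and the microglial markers 20.9, 22.1, 52.6 and 25.3 RPKM in the same order. Gfap alone was at 11.5, 17.1, 91.9 and 28.4 RPKM. Red blood cell markers were higher in both G85R libraries, at 11.5 and 10.8 RPKM against 1.82 and 2.10 RPKM in wild-type. Of the endothelial and ependymal markers, 2 of 6 and 2 of 4 were highest in G85R replicate 1. Endothelial markers summed to 8.87 and 9.96 RPKM in wild-type and to 7.88 and 7.49 RPKM in G85R. Ependymal markers summed to 19.9 and 18.4 RPKM in wild-type and to 23.0 and 22.6 RPKM in G85R. The part of these markers in the differences given for the motor genes was not tested, and values without G85R replicate 1 are given where it decided a difference. As in any bulk RNA, fewer cells of a type and less RNA per cell cannot be told apart.

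RNA for the transport machinery was abundant in these cell bodies. Of the 66 entries, 41 reached a mean of 1 RPKM over the 4 libraries and were tested, and 16 of these 41 were among the 1000 highest of the 11530 tested entries. The highest was Klc1 at rank 31, followed by the dynein light chain gene Dynll2 at rank 66. The 25 entries that were not tested had means of 0.958 RPKM or less, and 4 of them were at 0 in all 4 libraries. By class, the untested entries were 10 of cell division kinesins, 9 of other kinesins, 5 of dynein light chains and 1 of kinesin light chains.

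**Figure D1:**
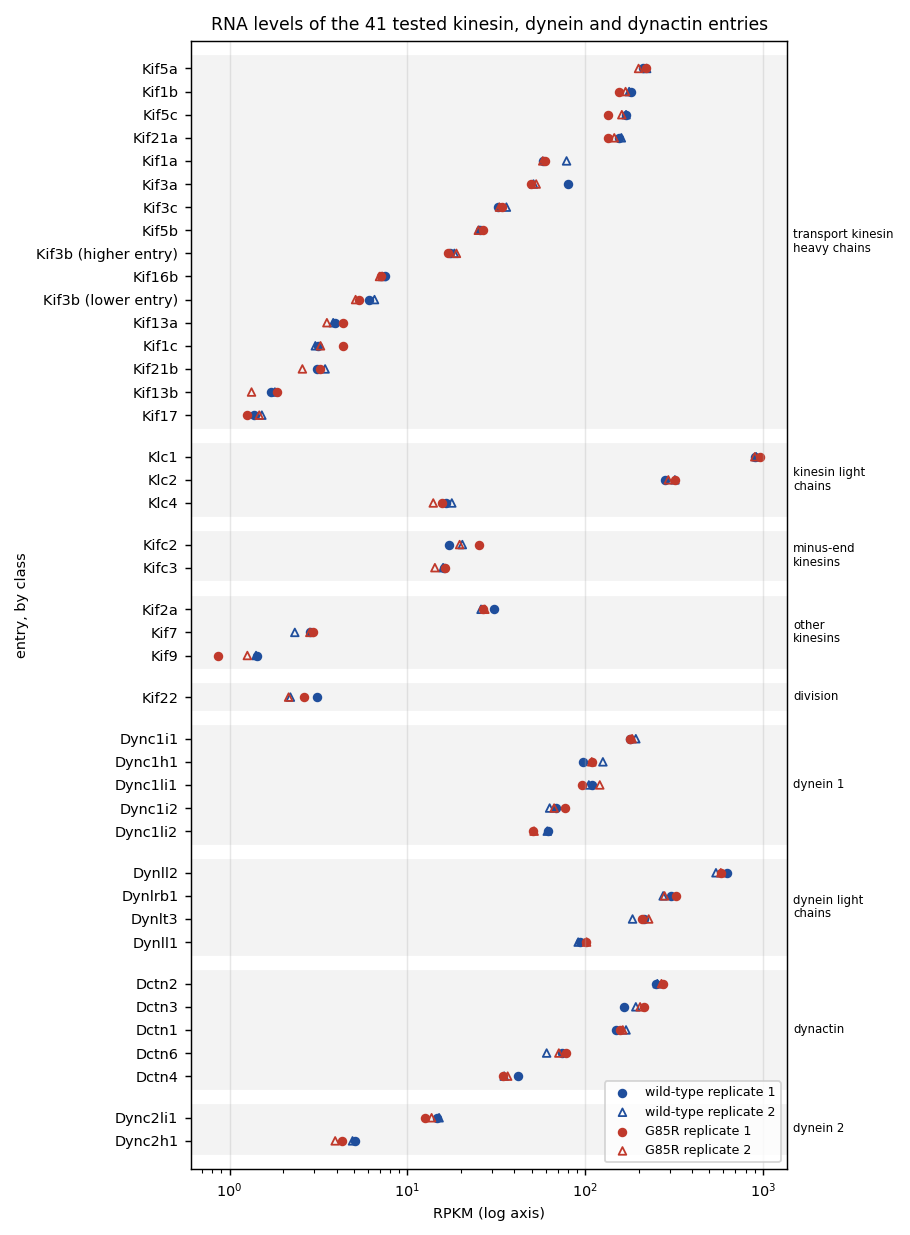
RPKM of the 41 tested entries in each library, on a log axis and grouped by class, with circles for replicate 1, triangles for replicate 2, blue for wild-type and red for G85R. The points of an entry lie close together while entries range from 1.24 to 920 RPKM in mean, and wild-type replicate 1 stands apart for Kif3a.

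Between the genotypes, the motor genes differed little. In limma on log2(RPKM + 0.1), with Benjamini-Hochberg adjustment over all tested entries, 0 of the 41 members were called at an adjusted p under 0.05, where 0.642% of all tested entries were. The lowest adjusted p of a member was 0.399. At an unadjusted p under 0.05 there was 1 member (Dync1li2), against 11.0% of all tested entries. The study's kind of test, a log-linear likelihood ratio, called 0 members and had 1 (Dctn3) at an unadjusted p under 0.05. It was run here on RPKM rounded to whole numbers and summed over the 2 libraries of a genotype. It thus takes no account of the spread between mice, and for members of a few RPKM it could hardly find a difference. Limma on estimated reads (voom) called 0 members, with 1 at an unadjusted p under 0.05. Both G85R libraries were above both wild-type libraries for 5 members and below them for 10, while 17.3% and 23.9% of all tested entries were so placed. The count above was thus under the background share and the count below was near it. Group means were lower in G85R for 24 members and higher for 17, beside 54.7% lower and 45.3% higher over all tested entries. The log2 fold changes (G85R minus wild-type) of the members ran from -0.41 to 0.27 with a median of -0.04, and the median over all tested entries was -0.02. Fold changes on this scale understate those of low genes.

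How large a difference could have been missed is given by the 95% limma intervals. For the 30 members with a mean of at least 10 RPKM, the intervals lay between -0.80 and 0.62 on the log2 scale, and the median standard error of the 41 members was 0.12. Replicates of a genotype differed by a median of 0.11 (wild-type) and 0.12 (G85R) on the log2 scale over the members, against 0.16 and 0.15 over all tested entries.

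**Figure D2:**
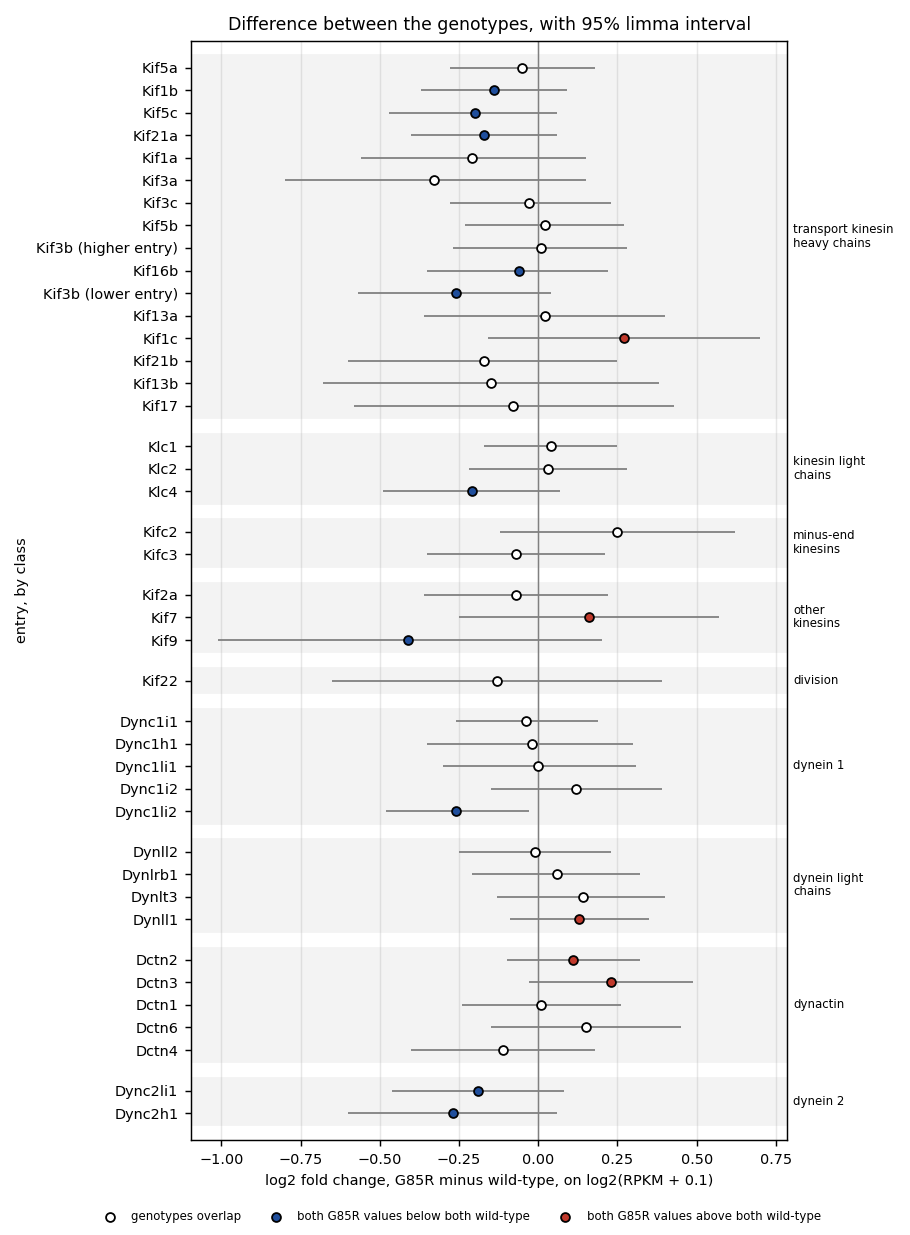
Log2 fold change (G85R minus wild-type, on log2(RPKM + 0.1)) of each tested entry with its 95% limma interval; blue points have both G85R libraries below both wild-type libraries, red points above, and white points overlap. All intervals but that of Dync1li2 (-0.48 to -0.03) include 0, and the points run from -0.41 for Kif9 to 0.27 for Kif1c.

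Kinesin-1 is the main anterograde motor, made of heavy chains that walk (Kif5a, Kif5b, Kif5c) and light chains that bind cargo (Klc1 to Klc4). The neuronal heavy chains led. Kif5a (chr10:126662755-126700136 on NCBIM37, minus strand) was at 211 and 222 RPKM in wild-type replicates 1 and 2 and at 219 and 200 RPKM in G85R replicates 1 and 2. The genotypes overlapped, and the log2 fold change was -0.05 (SE 0.10, interval -0.28 to 0.18). Kif5c (chr2:49474818-49630298, plus strand) was at 170 and 170 RPKM in wild-type and at 135 and 161 RPKM in G85R. Both G85R values were below both wild-type values, the log2 fold change was -0.20 (SE 0.11, interval -0.47 to 0.06, limma adjusted p = 0.581), and without G85R replicate 1 it was -0.08. Kif5b, the heavy chain found in all cell types, was level in the 4 libraries at 25.8, 25.3, 26.7 and 25.1 RPKM.

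The light chains were more abundant than the heavy chains they bind. Klc1 (chr12:112997060-113046055, plus strand) was at 901 and 916 RPKM in wild-type and at 964 and 901 RPKM in G85R. The groups overlapped at a log2 fold change of 0.04 (SE 0.09, interval -0.17 to 0.25). Klc2 was at 281 and 320 RPKM in wild-type and at 320 and 294 RPKM in G85R, again overlapping. Klc4 was far lower, at 16.6 and 17.8 RPKM in wild-type and at 15.7 and 14 RPKM in G85R. Both G85R values of Klc4 were below the wild-type values (log2 fold change -0.21, interval -0.49 to 0.07, limma adjusted p = 0.602). Klc3, known from testis, did not exceed 0.50 RPKM. In wild-type, the summed light chains were 2.94 and 3.01 times the summed kinesin-1 heavy chains, while G85R replicates 1 and 2 had ratios of 3.41 and 3.13. Both G85R ratios were above both wild-type ratios, but replicate 1 held most of the gap and the 3.13 of replicate 2 was closer to wild-type. With 2 values against 2, 33.3% of orderings do not overlap by chance, and the ratio was not tested.

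Kinesin-3 motors carry synaptic vesicle precursors and mitochondria. Kif1b (chr4:148550428-148681802, minus strand) was the highest of them at 182 and 177 RPKM in wild-type and 156 and 169 RPKM in G85R. The genotypes did not overlap, with a log2 fold change of -0.14 (SE 0.10, interval -0.37 to 0.09, limma adjusted p = 0.683), and of -0.08 without G85R replicate 1. Kif1a, the vesicle precursor motor, was at 58.3 and 78.7 RPKM in wild-type and at 59.5 and 57.8 RPKM in G85R, where wild-type replicate 2 stood above the other 3 libraries, and the log2 fold change of -0.21 was 0.01 without it. Kif1c (chr11:70514050-70545466, plus strand), a broadly expressed relative, was low, at 3.16 and 3.04 RPKM in wild-type and at 4.35 and 3.25 RPKM in G85R. It had the largest positive log2 fold change of the members at 0.27 (SE 0.18, interval -0.16 to 0.70, limma adjusted p = 0.679), which was 0.07 without G85R replicate 1. The endosomal kinesin-3 genes Kif16b, Kif13a and Kif13b had means of 7.19, 3.91 and 1.67 RPKM.

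Kinesin-2 motors pair Kif3a with Kif3b or Kif3c and bind cargo through the associated protein Kifap3, and they also drive transport in cilia. Kif3a (chr11:53380881-53417746, plus strand) was at 80.5 and 51.3 RPKM in wild-type and at 49.5 and 53.1 RPKM in G85R. Its fold change was the second most negative of the members at -0.33 on the log2 scale (SE 0.20, interval -0.80 to 0.15, limma adjusted p = 0.638), but it rested on wild-type replicate 1, without which it was 0.00. Kif3c was at 32.4, 36.1, 34.1 and 33.0 RPKM and overlapped. Kif3b had 2 entries, and the higher was at 17.3 and 18.4 RPKM in wild-type and 17.0 and 18.9 RPKM in G85R. The lower Kif3b entry was at 6.07 and 6.54 RPKM in wild-type and at 5.34 and 5.12 RPKM in G85R, without overlap (log2 fold change -0.26, SE 0.13, interval -0.57 to 0.04, limma adjusted p = 0.529). The entries of this gene thus lay on either side, at 0.01 and -0.26, and how its reads were divided between them was not tested. Kif17, a homodimeric kinesin-2 of dendrites and cilia, was at 1.26 to 1.52 RPKM.

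Kif21a, a kinesin-4 whose human counterpart is mutated in an inherited eye movement disorder, had a level close to that of Kif5c. It was at 156 and 160 RPKM in wild-type and at 135 and 146 RPKM in G85R, without overlap (log2 fold change -0.17, SE 0.10, interval -0.40 to 0.06, limma adjusted p = 0.596), and its fold change was -0.11 without G85R replicate 1. Its relative Kif21b was at 2.57 to 3.45 RPKM and overlapped.

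Read together, the 19 tested anterograde entries had 13 group means lower in G85R and 6 higher, a median log2 fold change of -0.08, and 6 entries below and 1 above without overlap, beside the 23.9% and 17.3% of all tested entries. The 16 transport heavy chain entries made up 12 of the 13 lower ones, with a median of -0.11. In G85R replicates 1 and 2 taken singly against the wild-type mean, the anterograde median was -0.05 and -0.08. The lowest of the 4 values fell in G85R replicate 2 for 9 of the 19 entries and in G85R replicate 1 for 6, beside 27.0% and 25.9% of all tested entries. The median of the anterograde entries was -0.01 without wild-type replicate 2, and 0 of the 19 entries were called by limma, with 0 at an unadjusted p under 0.05.

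Kifc2 and Kifc3 are kinesins with the motor at the other end of the chain, and they walk toward the minus end. Kifc2 (chr15:76490996-76498625, plus strand), a neuronal gene, was at 17.1 and 20.4 RPKM in wild-type and at 25.2 and 19.7 RPKM in G85R. Only G85R replicate 1 was above the wild-type range, and the log2 fold change of 0.25 (SE 0.16, interval -0.12 to 0.62, limma adjusted p = 0.642) was 0.08 without it. Kifc3 was at 16.1, 15.9, 16.2 and 14.3 RPKM, with a log2 fold change of -0.07.

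Among the other kinesins, Kif2a, which takes microtubules apart and limits axon branching, was the highest at 30.9 and 26.0 RPKM in wild-type and 26.7 and 27.3 RPKM in G85R. The groups overlapped. Kif9 (chr9:110379462-110427683, plus strand), a kinesin of motile cilia, was at 1.43 and 1.41 RPKM in wild-type and at 0.864 and 1.26 RPKM in G85R. It had the most negative log2 fold change of the members at -0.41 (SE 0.25, interval -1.01 to 0.20, limma adjusted p = 0.647), and -0.16 without G85R replicate 1. Kif7, a regulator of Hedgehog signaling at the tip of the primary cilium, lies at chr7:86842985-86859072, minus strand, and had 2 entries. These were matched to the gene by symbol only, so the position of each entry is not known. The higher was at 2.83 and 2.33 RPKM in wild-type and at 2.94 and 2.83 RPKM in G85R, a log2 fold change of 0.16 (SE 0.17, interval -0.25 to 0.57).

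A few low entries, below the level for testing, are named here after their values were seen. They were picked from untested entries that went both ways. Without overlap, Klc3, Kif4, Kif2c and Kif14 were higher in G85R. The lower Kif7 entry, Kif11, Kif18a, Kif26b and Kif27 were lower without overlap. The share over all untested entries was not computed. The lower Kif7 entry was at 0.999 and 0.551 RPKM in wild-type and at 0.0614 and 0.0230 RPKM in G85R, or about 15 and 9 estimated reads against 1 and 0. With the minimum at a mean of 0.1 RPKM it entered the test, at a log2 fold change of -2.59 (limma adjusted p = 0.0533), while the higher entry of the gene had the opposite sign. Kif26b (chr1:180459256-180862986, plus strand), an atypical kinesin of developing tissue, was at 1.27 and 1.21 RPKM in wild-type and at 0.734 and 0.617 RPKM in G85R. Its mean of 0.958 RPKM kept it just out of the test, and with the lower minimum its log2 fold change was -0.79 (SE 0.23, limma adjusted p = 0.264). In both entries each wild-type value was above each G85R value, on few reads for Kif7 and on 103 to 222 estimated reads for Kif26b. The remaining kinesins of this class (Kif6, Kif19a, Kif24, Kif26a, Kif27) had means of 0.0369 to 0.690 RPKM, and Kif2b and Kif12 were at 0 in every library.

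The kinesins of cell division were near 0 in these postmitotic cells, with the exception of Kif22. Of their 11 entries only Kif22, a chromosome arm kinesin, was tested, at 3.10 and 2.20 RPKM in wild-type and 2.63 and 2.15 RPKM in G85R, with overlap. Kif20a and the higher Kifc1 entry had means of 0.454 and 0.356 RPKM and overlapped, and the other 8 entries (Kif4, Kif11, Kif14, Kif15, Kif18a, Kif2c, Kif23 and the lower of Kifc1) had means of 0.287 RPKM or less. Kif18a, which limits chromosome movement in mitosis, was named after its values were seen: it was at 0.254 and 0.268 RPKM in wild-type and at 0.111 and 0.126 RPKM in G85R, on 8 to 22 estimated reads. Of 8 markers of dividing cells, 6 did not exceed 0.0886 RPKM in any library. The exceptions were Plk1 at 75.2 to 81.9 RPKM and Cdc2a at 0.666 to 1.74 RPKM.

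Cytoplasmic dynein 1 is built on a pair of heavy chains, which hold the motor, with intermediate chains that bind dynactin and light intermediate chains that bind cargo adaptors. Dync1h1 (chr12:111839662-111905155, plus strand), the heavy chain, was at 97.1 and 126 RPKM in wild-type and at 109 and 109 RPKM in G85R. Both G85R values lay between the wild-type values, and the log2 fold change was -0.02 (SE 0.14, interval -0.35 to 0.30). Dync1i1, the neuronal intermediate chain, was at 179 and 193 RPKM in wild-type and at 178 and 184 RPKM in G85R. The general intermediate chain Dync1i2 was at 69.0, 63.2, 76.8 and 67.0 RPKM, so that Dync1i1 was 2.32 to 3.06 times as high in every library.

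The light intermediate chains are alternative subunits, and a dynein holds one kind or the other. Dync1li1 was at 110 and 105 RPKM in wild-type and at 96.4 and 121 RPKM in G85R, with the wild-type values inside the G85R range. Dync1li2 (chr8:106941574-106966947, minus strand) was at 61.8 and 61.3 RPKM in wild-type and at 51.2 and 51.7 RPKM in G85R. Replicates of Dync1li2 agreed within 0.01 on the log2 scale in each genotype, and both G85R values were below both wild-type values. Its log2 fold change was -0.26 (SE 0.10, interval -0.48 to -0.03), with an unadjusted p of 0.0311 and an adjusted p of 0.399 in limma, so it was not called. It lay between -0.26 and -0.25 when any 1 library was left out, G85R replicate 1 included. Its share of the light intermediate chain RNA was 36.0% and 36.8% in the wild-type libraries, and the G85R libraries had 34.7% and 30.0%. The value of G85R replicate 1 was thus close to wild-type on this measure, since Dync1li1 was low in that library too.

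The dynein light chains are small proteins, and the LC8 proteins (Dynll1, Dynll2) also serve as dimerizing hubs for many partners outside dynein. Dynll2 (chr11:87793027-87801035, minus strand) was at 627 and 545 RPKM in wild-type and at 582 and 580 RPKM in G85R. The G85R values lay inside the wild-type range (log2 fold change -0.01, SE 0.10, interval -0.25 to 0.23). Dynll1 (chr5:115747119-115751008, minus strand) was at 93.5 and 91.5 RPKM in wild-type and at 101 and 102 RPKM in G85R, without overlap (log2 fold change 0.13, SE 0.09, interval -0.09 to 0.35, limma adjusted p = 0.687). Dynll2 was 6.70 and 5.95 times Dynll1 in the wild-type libraries, beside ratios of 5.78 and 5.67 for G85R. The roadblock light chain Dynlrb1 was at 304, 275, 323 and 280 RPKM and overlapped, while its paralog Dynlrb2 did not exceed 0.462 RPKM. Dynlt3 (chrX:9231393-9240129, minus strand), a Tctex light chain, was at 215 and 185 RPKM in wild-type and at 210 and 228 RPKM in G85R, with overlap at a log2 fold change of 0.14 (interval -0.13 to 0.40).

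The other Tctex light chain, Dynlt1, was at or near 0 in all libraries, and its sequence bears on that value. It had 4 entries, of which 2 were at 0 in every library and the others had 1 estimated read in a single library. The mouse genome holds several copies of the gene on chromosome 17. The study reports a minimum share of its reads that mapped at a single location, and it could not assess Hspa8 because of that gene's processed pseudogenes. Whether reads that match several places entered the expression values is not given in the sources used here. The first 75 coding bases of each copy, the length of 1 read, are shown to make this visible, from GENCODE transcripts of NCBIM37. Capitals mark bases that differ from Dynlt1a at the same position, and Dynlt3, which was measured, is shown for contrast.
Dynlt1a: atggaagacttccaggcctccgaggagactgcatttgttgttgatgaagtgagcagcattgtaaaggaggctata
Dynlt1b: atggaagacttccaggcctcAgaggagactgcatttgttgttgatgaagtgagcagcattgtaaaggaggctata
Dynlt1c: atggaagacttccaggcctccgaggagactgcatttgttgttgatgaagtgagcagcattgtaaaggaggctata
Dynlt1e: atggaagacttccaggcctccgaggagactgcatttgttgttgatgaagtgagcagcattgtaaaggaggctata
Dynlt1f: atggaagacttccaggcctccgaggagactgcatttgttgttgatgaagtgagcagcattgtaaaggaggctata
Dynlt3: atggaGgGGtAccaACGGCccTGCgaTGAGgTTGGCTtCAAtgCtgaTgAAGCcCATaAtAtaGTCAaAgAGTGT
Over all 342 coding bases, Dynlt1a, Dynlt1c, Dynlt1e and Dynlt1f were identical, and Dynlt1b differed from them at 1 base. Of the 75-base windows in their exons, those that occur once in the genome were 25.2% for Dynlt1a (chr17:6310547-6317474), 19.6% for Dynlt1b (chr17:6429221-6435441) and 0.0% for the other 3. A value near 0 for Dynlt1 therefore cannot be read as absence of its RNA, and whether the shared sequence set the value was not tested. Capza1, a dynactin capping protein gene outside the families, was likewise at 0.0241 RPKM or less with 32.5% of its windows unique. In Dynlt3, 46 of the 75 bases differed at the same position, and no coding window was shared. The coding sequence of Dynlt3 has 351 bases against 342, and the sequences were not aligned. The capitals and the count of 46 can thus include bases that differ only by a shift in position.

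The LC8 pair could be told apart by reads of this length. Over the same stretch, with capitals for bases of Dynll1 that differ from Dynll2, the sequences were as follows.
Dynll2: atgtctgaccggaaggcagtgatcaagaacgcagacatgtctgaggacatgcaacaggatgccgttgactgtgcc
Dynll1: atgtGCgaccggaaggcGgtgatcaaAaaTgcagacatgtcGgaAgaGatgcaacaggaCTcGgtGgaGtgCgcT
They differed at 15 of 75 bases and at 51 of all 270 coding bases, and 0 of 196 coding windows were shared. In the exons of Dynll1, 92.5% of windows occur once, and 100% in Dynll2. Of the members found in the annotation under the same symbol, Kifc1 (74.1%), Kif5b (84.9%) and Kif2a (89.5%) had the lowest shares.

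**Figure D3:**
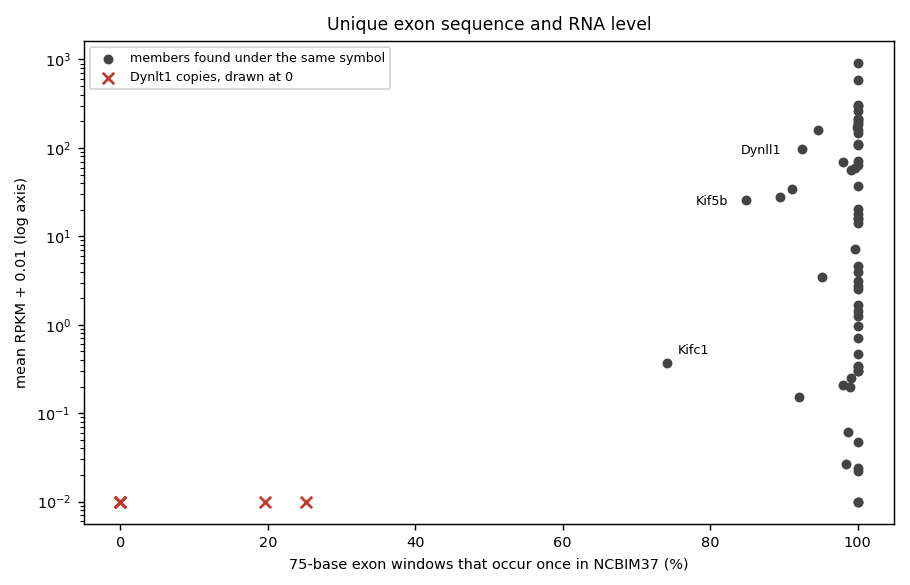
Share of 75-base exon windows that occur once in the NCBIM37 genome (x axis, percent) against the mean RPKM over the 4 libraries plus 0.01 (y axis, log scale), 1 point per gene. The Dynlt1 copies (red crosses, drawn at an RPKM of 0) are at 0.0% to 25.2%, while the other members are at 74.1% or more and cover the whole range of levels.

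Dynactin joins dynein to cargo. Its largest subunit, Dctn1 (p150Glued; chr6:83115914-83150111, plus strand), holds the microtubule- and dynein-binding parts, Dctn2 (dynamitin) and Dctn3 (p24) form the shoulder that connects it to the actin-like filament, and Dctn4 and Dctn6 sit at the filament's pointed end. Dctn1 was at 149 and 170 RPKM in wild-type and at 158 and 163 RPKM in G85R, inside the wild-type range (log2 fold change 0.01, SE 0.10, interval -0.24 to 0.26). Dctn2 (chr10:126703442-126718862, plus strand) was at 250 and 255 RPKM in wild-type and at 275 and 269 RPKM in G85R. Dctn3 (chr4:41661830-41670202, minus strand) was at 165 and 193 RPKM in wild-type and at 215 and 204 RPKM in G85R. Both shoulder subunits were thus higher in both G85R libraries, at log2 fold changes of 0.11 (SE 0.09, interval -0.10 to 0.32, limma adjusted p = 0.733) and 0.23 (SE 0.11, interval -0.03 to 0.49, limma adjusted p = 0.511), and neither was called. For Dctn3 the log2 fold change was 0.12 without wild-type replicate 1 and 0.35 without wild-type replicate 2.

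The pointed-end subunits overlapped between the genotypes. Dctn6 (chr8:35153474-35171850, minus strand) was at 74.3 and 60.8 RPKM in wild-type and at 77.8 and 71.2 RPKM in G85R, at a log2 fold change of 0.15 (SE 0.13, interval -0.15 to 0.45), and of 0.00 without wild-type replicate 2. Dctn4 was at 42.1, 35.1, 34.5 and 36.7 RPKM, a log2 fold change of -0.11 (SE 0.12, interval -0.40 to 0.18), which was 0.02 without wild-type replicate 1. Over the 5 dynactin subunits the median was 0.11, with 4 higher (Dctn1 by 0.01 only) and 2 of these without overlap, beside the 17.3% of all tested entries. Dctn2 lies beside Kif5a, on opposite strands with 3305 bases between the genes, and the log2 fold changes of these neighbors were 0.11 and -0.05.

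The 14 tested retrograde entries (dynein 1, light chains and dynactin) had 9 group means higher in G85R and 5 lower. Their median was 0.03 on the log2 scale, and 3 were above (Dctn2, Dctn3, Dynll1) and 1 below (Dync1li2) without overlap, beside the 17.3% and 23.9% of all tested entries. The dynein 1 chains alone had a median of -0.02 and the light chains of 0.10. Against the wild-type mean, the retrograde median was 0.04 and 0.03 for G85R replicates 1 and 2. The direction of the retrograde counts moved with the scaling: with quantile normalization 7 were higher and 7 lower (median 0.01), and after scaling by the median ratio 11 were higher and 3 lower (median 0.06). Under the same scalings, 14 and 13 of the 19 anterograde entries were lower, at medians of -0.10 and -0.05. The difference between the anterograde and retrograde sets was not tested.

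Cytoplasmic dynein 2 is the separate motor that returns cargo from cilia. Dync2h1 (chr9:6928503-7184446, minus strand), its heavy chain, was at 5.05 and 4.92 RPKM in wild-type and at 4.30 and 3.93 RPKM in G85R. Dync2li1, its light intermediate chain, was at 14.7 and 15.1 RPKM in wild-type and at 12.5 and 13.7 RPKM in G85R. Both genes were lower in both G85R libraries, with log2 fold changes of -0.27 (SE 0.14, interval -0.60 to 0.06, limma adjusted p = 0.544) and -0.19 (SE 0.11, interval -0.46 to 0.08, limma adjusted p = 0.631), and neither was called. Without G85R replicate 1 the values were -0.33 and -0.12.

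The makeup of each complex or gene group, as a share of its summed RPKM, kept the same leading gene in every library, while single shares varied. The dynactin subunits sit together in the same complex, and Kif3a pairs with Kif3b or Kif3c. Their shares are therefore not choices between alternatives, and the dynactin sum lacks Dctn5. Kif5a made up 51.8% and 53.2% of kinesin-1 heavy chain RNA in the wild-type libraries, with 57.4% and 51.7% for G85R. Kif5c was at 41.9% and 40.7% for wild-type beside 35.6% and 41.8% for G85R, so that G85R replicate 1 alone stood apart. Klc1 held 73.0% to 75.2% of the light chain RNA. Among the Kif1 genes, Kif1b held 74.8% and 68.4% for wild-type beside 71.0% and 73.5% for G85R. In kinesin-2, Kif3a was at 58.5% in wild-type replicate 1 and at 45.1% to 47.6% in the other 3 libraries. Dync1i1 was at 69.9% to 75.4% of the intermediate chains, and Dynll2 at 85% to 87.0% of the LC8 pair. In dynactin, Dctn3 was at 24.2% and 27.0% for wild-type beside 28.2% and 27.4% for G85R, and Dctn1 at 21.9% and 23.9% beside 20.8% and 21.9%. With 2 libraries against 2, an exact two-sided permutation test cannot give a p below 0.333, so these shares were not tested.

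**Figure D4:**
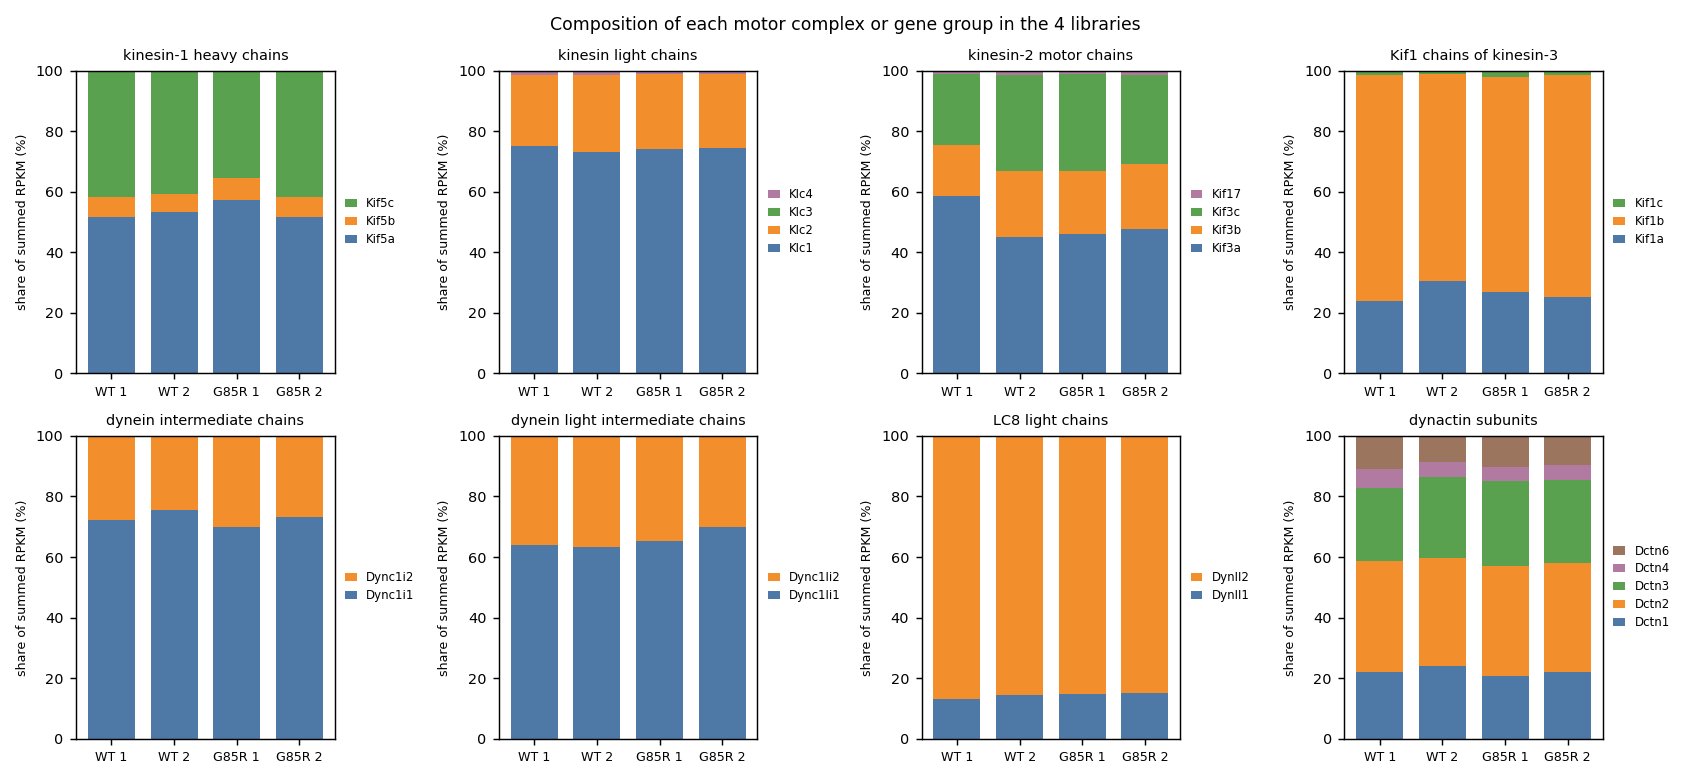
Stacked bars of the share (percent) that each gene held of the RPKM summed over its complex or gene group, for wild-type (WT) replicates 1 and 2 and G85R replicates 1 and 2. The order of the genes within a panel is led by the same gene in all 4 libraries, and single shares stand apart for Kif3a at 58.5% in wild-type replicate 1, Kif5c at 35.6% in G85R replicate 1 and Dync1li2 at 30.0% in G85R replicate 2.

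Other genes of the pathway, which work with these motors, were read in the same fit. Of 38 listed genes that were found, 37 were tested, 0 were called by limma and 1 had an unadjusted p under 0.05. Group means were higher in G85R for 15 and lower for 22. Over all tested entries, 0.642% were called, 11.0% had an unadjusted p under 0.05, 45.3% were higher and 54.7% lower. The log2 fold changes of the pathway genes had a median of -0.02. The dynactin filament and capping proteins were abundant: Capzb, the capping protein beta subunit, was at 344, 289, 378 and 324 RPKM, and Actr1a, the actin-like filament protein, at 137, 141, 130 and 140 RPKM, both with overlap. Among the dynein regulators, Pafah1b1 (Lis1) was at 162 and 160 RPKM in wild-type and 147 and 161 RPKM in G85R, and its partner Ndel1 at 77.8, 81.6, 75.7 and 78.5 RPKM. Ccdc99, which encodes the dynein adaptor Spindly, was the gene with the unadjusted p under 0.05. It was at 1.06 and 0.893 RPKM in wild-type and at 1.51 and 1.57 RPKM in G85R, without overlap and at a log2 fold change of 0.61 (SE 0.22, interval 0.08 to 1.14, limma adjusted p = 0.391), on 69 to 111 estimated reads.

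Of the 13 dynein adaptors and regulators, 5 were above without overlap and 0 below, and of the 19 kinesin adaptors and regulators, 1 was above and 6 below, beside 17.3% above and 23.9% below over all tested entries. The medians of these lists were -0.01 and -0.04, and the difference between them was not tested. Clstn1, a membrane protein that docks kinesin light chains, was the highest kinesin adaptor at 240 and 270 RPKM in wild-type and 283 and 267 RPKM in G85R, with overlap. Arl8a, which recruits kinesin to lysosomes, was at 187 and 170 RPKM in wild-type and at 208 and 202 RPKM in G85R, without overlap (log2 fold change 0.20, SE 0.10, interval -0.03 to 0.43, limma adjusted p = 0.520). Kifap3, the kinesin-2 cargo subunit and named here as the partner of Kif3a, was at 136, 129, 130 and 125 RPKM, so that the high Kif3a value of wild-type replicate 1 had no counterpart of that size in its partner.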

How the data were processed

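PolyA RNA of laser-captured motor neuron cell bodies was sequenced as 75-base single-end reads in 4 libraries. The authors mapped reads with Bowtie 0.12.3 to mm9 and a splice junction database and quantified UCSC gene clusters with Cufflinks. The deposited values are RPKM, given as calculated and again with 1 read added, and their difference is the RPKM of 1 read. RPKM divided by it gave the estimated reads, which are not exact counts because Cufflinks divides reads between isoforms.

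The genotype fit used limma 3.58.1 under R 4.3.3 (lmFit, then eBayes with a trend) on log2(RPKM + 0.1) for the 11530 entries with a mean of at least 1 RPKM, two-sided, with Benjamini-Hochberg adjustment over them and a threshold of 0.05. On simulated data with 200 of 11530 entries changed 4-fold, 232 were called, of which 198 were changed and the rest were false calls. The false share among these calls was above the 0.05 that the adjustment aims at, in a single simulated set. A 4-fold change is larger than that of any tested member. The simulation therefore cannot show whether differences as small as theirs would be called. Tables were made with Python 3.11.15, numpy 2.4.6 and pandas 2.3.3 and drawn with matplotlib 3.10.9. Genes were placed by symbol on NCBIM37, the assembly also called mm9, with GENCODE vM1, and exon windows of 75 bases were searched for exact matches on both strands.

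Named with values were the 3 highest entries of each class, entries at an unadjusted p under 0.05, those without overlap and past 0.3 on the log2 scale, the 5 largest changes each way, and the 2 highest genes of each pathway list. Kif1a, Kif3c, Kif5b, Kif13a, Kif13b, Kif16b, Kif17, Kif21a, Kif21b, the higher Kif3b entry, Dync1i2, Dynll1, Dctn4, Kifap3, Capza1 and the low entries were added after their values were seen. The members followed from their symbols, but the gene families and lists were chosen with earlier results of these data known. Alternatives were other pseudocounts, scalings, minimum levels, variance models and tests, a replicate block, and leaving out each library, where the single library left in a genotype is assumed to vary like the others. Symbols that were not matched (such as Dctn5) were not analysed here.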

Additional observations from a re-analysis of the deposited data

How the results depend on the processing

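No member was called by limma under any alternative that kept all 4 libraries. Of 35 named genes, 21 kept their direction under every alternative. The replicate block, the variance models and the minimum levels leave a fold change as it was. Only the other alternatives could turn a sign. Over all tested entries, 74 calls became 39 with quantile normalization, 17 at a minimum of 5 RPKM, 112 with no minimum, 49 without the variance trend, and 78 to 188 with 1 library left out. Members at an unadjusted p under 0.05 (1) became 3 at a minimum of 0.1 RPKM, 7 with no minimum, 0 without the trend, and 0 to 4 with 1 library left out. Members without overlap (15) became 24 with no minimum and 26 to 30 with 1 library left out, where fewer values can overlap.

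The replicate numbers are shared by the genotypes, but no source says what they pair. Over the tested genes, the deviations of the replicate 1 libraries from their genotype means correlated at 0.22. With 2 libraries per genotype, the deviations of replicate 2 mirror those of replicate 1 and add nothing to this value. With the replicate block, limma called 527 entries, 0 of them members, and 4 members had an unadjusted p under 0.05. The share of all tested entries at that unadjusted p under the block is not given here. The medians were as without the block.

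The median log2 fold change of dynein 2 (-0.23) was -0.20 and -0.23 at pseudocounts of 1 and 0.01, -0.21 and -0.19 with median ratio scaling and quantile normalization, -0.19 at a minimum of 5 RPKM (1 gene), and -0.23 in voom and the likelihood ratio test. With quantile normalization, dynactin went from 0.11 to 0.07 and kinesin light chains from 0.03 to -0.05. With 1 library left out, the medians ran from -0.11 to -0.01 (anterograde), 0.02 to 0.09 (retrograde), -0.11 to -0.05 (transport heavy chains), -0.06 to 0.09 (kinesin light chains), -0.09 to 0.02 (dynein 1), 0.01 to 0.14 (dynein light chains) and 0.08 to 0.13 (dynactin). The difference of the Dync1li2 share ran from -6.40 to -1.70 percentage points.

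Signs turned for genes with small differences. With median ratio scaling, Dynll2 went to 0.02 and Dync1h1 to 0.00, and with quantile normalization Klc1 went to -0.05, Dctn1 to -0.02 and Dync1li1 to -0.02. With 1 library left out, the log2 fold changes ran from -0.11 to 0.09 (Dynll2), -0.19 to 0.05 (Kif2a), -0.06 to 0.13 (Klc2), -0.09 to 0.11 (Dctn1), -0.37 to 0.11 (Kif22), -0.21 to 0.17 (Dync1h1), -0.05 to 0.16 (Dynlrb1), -0.09 to 0.02 (Dync1i1), -0.16 to 0.16 (Dync1li1), -0.01 to 0.09 (Klc1), -0.13 to 0.00 (Pafah1b1), -0.10 to 0.01 (Actr1a), -0.12 to 0.02 (Kif5a) and -0.16 to 0.02 (Kifc3). Of the members added after their values were seen, Dctn4 ran from -0.24 to 0.02, Kif1a from -0.42 to 0.01 and the higher Kif3b entry from -0.07 to 0.09. Likewise, Kif13b ran from -0.37 to 0.07, Kif17 from -0.18 to 0.03, Kif3c from -0.11 to 0.05, Kif13a from -0.13 to 0.16 and Kif5b from -0.03 to 0.06. The cause was not tested. With 2 mice per genotype, p-values rest on the spread between these mice only. In limma the variance of each gene is drawn toward a trend over all tested entries, so its p-value does not rest on its own spread alone. Intervals of the low genes are wide, such as -1.01 to 0.20 for Kif9 on 64 to 121 estimated reads.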
